A study of Mus musculus with 2 samples.

Results

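Mitochondrial ribosomal protein genes were examined in lung tissue of C57BL/6 mice, an inbred laboratory strain, in 1 library from mice exposed to PM2.5, the fine fraction of airborne particulate matter, and 1 library from control mice. The members were the protein-coding genes of the GENCODE M21 mouse annotation whose symbols start with Mrpl or Mrps plus a digit, matched to the Ensembl identifiers of the count tables. This gave 78 annotated genes, of which 77 of the 37315 identifiers in the tables were members (48 Mrpl and 29 Mrps), and 76 passed a filter of a mean level of at least 1 CPM (counts per 1000000). Mrpl33 was not matched and was not analysed here. Mrpl53 had 2 counts in the PM2.5 library and 0 in the control library, both at or under the floor of 3 counts, so no fold is given for it. The labels do not give the sex, age, dose, route or the number of animals behind a library, and both titles end in 12W, which is not spelled out. Messenger RNA was selected on oligo-dT beads, libraries were made with a stranded kit, and read pairs were counted per gene.

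Mitochondria keep ribosomes of their own, which translate the few proteins that the mitochondrial genome still encodes, all of them subunits of the respiratory chain and ATP synthase. The RNA of these ribosomes is transcribed inside mitochondria, whereas every ribosomal protein is encoded in the nucleus, made in the cytosol and imported. Proteins of the small subunit hold the messenger RNA and the decoding site, and those of the large subunit surround the peptidyl transferase centre and the exit tunnel. Many have counterparts in the bacterial ribosome and the rest were added during the evolution of mitochondria, so the particle is rich in protein compared with its bacterial relative.

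The totals were 57435027 counts (PM2.5) and 62788045 counts (control), and 23531 and 21280 identifiers had at least 1 count. With 1 library per group no variation between animals can be estimated, so there is no replicate check, and each ratio of CPM carries an exact 95% interval for counting error only. A call, in either direction, needed a 1.5-fold difference and an interval on that side of 1. The 12 markers of lung cells summed to 59530 CPM in the PM2.5 library and 48317 CPM in the control library, so markers of the labelled tissue were abundant in both. Of these 12, 1 was called higher and 5 lower. Their median log2 ratio of PM2.5 over control was -0.48, and the interval lay below 1 for 8 and above 1 for 4. Markers of other cells differed between the libraries. All 8 neutrophil markers were higher with PM2.5 (summed 1617 CPM, against 489 CPM in control), 9 of 10 white and general fat markers were higher (775 CPM, against 208 CPM in control) and 5 of 6 tested brown fat markers were higher (118 CPM, against 12.3 CPM in control). The brown fat gene Ucp1 had 4855 counts in the PM2.5 library and 8 in the control library, and Elovl3 was at 0 in control. Of 7 red blood cell markers 6 were lower with PM2.5 (2700 CPM, against 5815 CPM in control), while 11 cardiac muscle markers summed to 441 CPM and 440 CPM, with 5 higher and 2 lower. Of 8 skeletal muscle markers 3 were tested and 2 were higher (14.1 CPM with PM2.5, against 6.80 CPM in control), and Myh4 and Tnnc2 were at 0 in both. The part of these other cells in the ratios below was not tested. In such bulk tissue, fewer cells of a type and less RNA per cell cannot be told apart.

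Promoters of nuclear genes for mitochondrial proteins often hold sites for NRF1, for ETS factors such as GABP and for YY1. The sequences before the start sites were searched for matches to these 3. The stretches below are bases free of annotated exons upstream of the RefSeq start, ending where the nearest exon begins, from RefSeq promoter windows of GRCm38.p6, 5′ to 3′ along the gene's strand. They belong to the large subunit member with the highest ratio (Mrpl24, chr3:87919294-87919505, plus strand), the one with the lowest ratio (Mrpl43, chr19:45006443-45006557, minus strand), the highest-ratio large subunit member whose stretch holds an NRF1 match (Mrpl22, chr11:58171414-58171660, plus strand) and, the highest-ratio small subunit member with at least 100 such bases (Mrps15, chr4:126046678-126046924, plus strand). Capitals mark matches to CCGGAAG (ETS) or GCGCANGCG (NRF1) on either strand.
Mrpl24: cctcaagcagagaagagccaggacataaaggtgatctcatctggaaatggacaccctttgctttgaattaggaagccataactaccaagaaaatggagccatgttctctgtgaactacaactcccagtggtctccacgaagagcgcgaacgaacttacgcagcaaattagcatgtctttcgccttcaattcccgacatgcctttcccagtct
Mrpl43: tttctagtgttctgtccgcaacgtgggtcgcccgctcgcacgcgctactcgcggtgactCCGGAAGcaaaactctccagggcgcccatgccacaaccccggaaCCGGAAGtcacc
Mrpl22: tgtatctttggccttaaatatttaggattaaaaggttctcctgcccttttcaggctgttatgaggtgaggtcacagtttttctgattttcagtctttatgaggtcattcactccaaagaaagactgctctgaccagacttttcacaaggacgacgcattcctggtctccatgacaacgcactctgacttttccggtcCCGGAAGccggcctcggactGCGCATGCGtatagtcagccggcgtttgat
Mrps15: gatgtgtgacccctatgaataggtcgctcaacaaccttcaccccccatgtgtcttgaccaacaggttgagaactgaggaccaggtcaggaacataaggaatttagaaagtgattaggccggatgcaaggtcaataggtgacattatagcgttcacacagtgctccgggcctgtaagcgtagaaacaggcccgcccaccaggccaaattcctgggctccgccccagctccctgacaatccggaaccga
Mrpl43 held a pair of ETS matches, Mrpl22 an ETS match and an NRF1 match downstream of it, and Mrpl24 and Mrps15 none in these stretches. The stretch of Mrps2, the lowest-ratio small subunit member with at least 100 such bases, is not shown and also held none. An ETS and a YY1 match can share 3 letters (AAG), and 1 site can match NRF1 on both strands. A window of 300 bases, 250 before and 50 after the RefSeq start, was found for 67 of the 76 tested members. NRF1 matches lay in the windows of 16 members (23.9%), against 14.2% of 10856 protein-coding genes. ETS matches lay in those of 24 members (35.8%), against 18.6%, and YY1 matches (AANATGGCG, either strand) in those of 11 (16.4%), against 5.43%. At least 1 of the 3 was present for 41 members (61.2%), against 32.7% of protein-coding genes. Per window, the shares were 21.9%, 32.9% and 15.1% of the members' 73 windows for NRF1, ETS and YY1, against 12.1%, 15.9% and 4.45% of 13838 windows of this length. Median GC content was 58.7% for members' windows and 60.3% for all windows. The median log2 ratio of PM2.5 over control was 0.24 in members with an NRF1 match and 0.30 in those without, 0.28 and 0.29 for ETS, and 0.31 and 0.27 for YY1. These medians are given as a description, with no test of a difference by motif.

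Transcripts of most mitochondrial ribosomal protein genes were modestly more abundant in the PM2.5 library, relative to TMM-scaled library sizes and before any account of transcript length. The length trend over all genes tested (lowess) was also removed, keeping their median. After this, 44 of 76 members lay above 0 on the log2 scale (39 with the length of the annotated main isoform). The median of the members was then 0.05 (0.02), beside -0.09 for all genes tested with either length. Of the 76 tested members 11 were called higher (7 of 47 large subunit and 4 of 29 small subunit genes), a share of 14.5% against a background of 14.9% of all 14518 genes tested. None was called lower, against a background of 19.1%. The share of members called higher was thus near the background, and members differed from it in the absence of lower calls and in the many small differences in the same direction. Cytosolic ribosomal protein and nuclear respiratory chain genes, described below, also had no lower calls. Of protein-coding genes within the members' interquartile range of length and their CPM range, 14.4% were called higher and 8.62% lower. The interval lay above a ratio of 1 for 57 members (36 large, 21 small), against 35.0% of all genes, and below 1 for 5 members (3 large, 2 small), against 48.0%. For the other 14 it included 1. The ratio itself was above 1 in 68 members and below 1 in 8. The summed level was 1906 CPM with PM2.5 and 1579 CPM in control, a ratio of 1.21 (counting interval 1.20 to 1.22).

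The median log2 ratio of the members was 0.29 (quartiles 0.10 to 0.46, range -0.39 to 0.87), beside -0.09 for all genes tested (quartiles -0.48 to 0.33) and -0.11 for protein-coding genes. The members' values had an SD of 0.27, and protein-coding genes within the interquartile range of the members' transcript length had an SD of 0.70. Limiting these genes to the members' CPM range as well gave an SD of 0.60. The interquartile range of the log2 ratio was 0.36 for members, 0.61 for the genes limited on both and 0.24 for cytosolic ribosomal protein genes. Of the members 71 (93.4%) lay above the median of all genes. These numbers rest on the scaling of the libraries as well: with totals in place of TMM-scaled sizes 29 members were called higher, the median of all genes was 0.14 and that of the members 0.52. A scaling moves all genes by the same amount, so it does not bear on the members' place relative to that median.

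**Figure D1:**
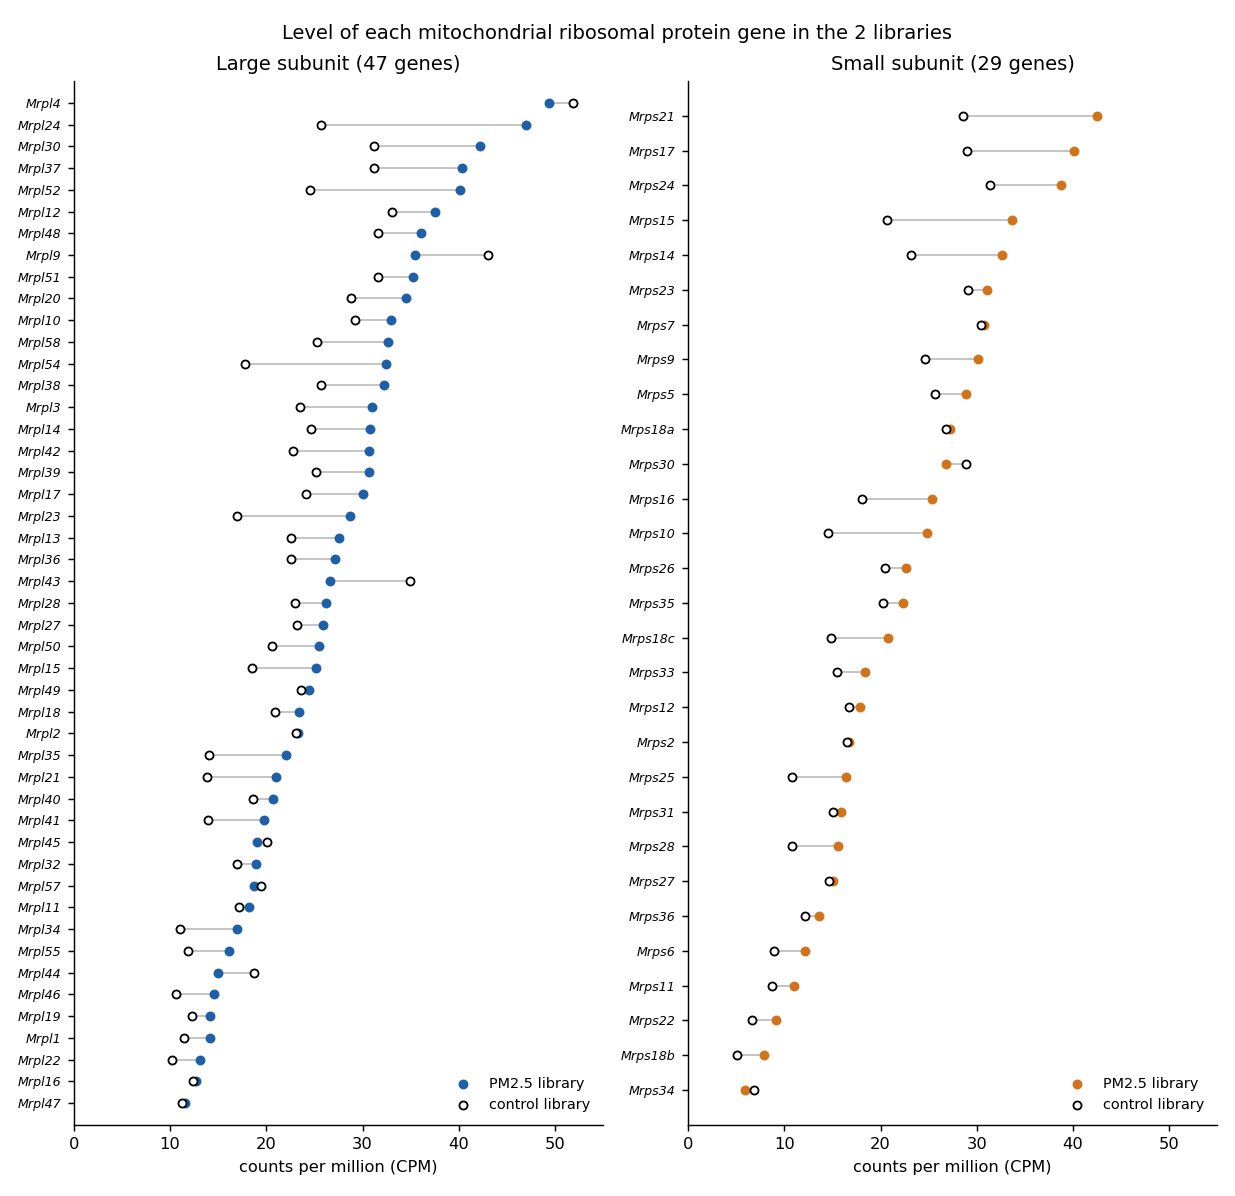
Level of each tested member in CPM (horizontal axis), with the PM2.5 library as filled points and the control library as open points, for 47 large subunit genes (left) and 29 small subunit genes (right), ordered by the PM2.5 value. CPM is not divided by transcript length, so the order down the page does not rank genes by abundance; the filled point lies right of the open one for 68 of 76 genes.

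Among large subunit genes with a bacterial counterpart, 5 of 28 were called higher and the median log2 ratio was 0.26. Mrpl24 (chr3:87919506-87923672, GRCm38) had 2920 counts in the PM2.5 library and 1490 in the control library, or 46.9 and 25.7 CPM, a ratio of 1.83 (1.72 to 1.95) and the highest of any member. In bacteria the counterpart of Mrpl24 starts the assembly of the large subunit. Mrpl23, whose bacterial counterpart sits at the mouth of the exit tunnel, had 1788 and 983 counts (ratio 1.70, 1.57 to 1.83). Mrpl35 had 1372 counts with PM2.5 and 816 in control (1.57), Mrpl34 1058 and 640 (1.54) and Mrpl21 1306 and 801 (1.52), and all 3 carry the name of a bacterial large subunit protein. At the other end, Mrpl9 had 2206 counts with PM2.5 and 2495 in control (0.82, 0.78 to 0.87) and Mrpl4 had 3069 and 3009 (0.95, with an interval that included 1). Since the PM2.5 library was the smaller one after counting but the larger one after TMM scaling, a member with slightly more PM2.5 counts, such as Mrpl4, can have a ratio under 1. Mrpl12, which in addition to its place in the ribosome binds the mitochondrial RNA polymerase, had 2333 counts with PM2.5 and 1916 in control (1.13, 1.07 to 1.21).

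Large subunit genes listed as having no bacterial counterpart had a median log2 ratio of 0.30 over 18 tested genes, with 2 called higher. Mrpl55 (log2 ratio 0.44) was on neither large subunit list. Mrpl54 had 2015 counts with PM2.5 and 1034 in control (1.82, 1.68 to 1.96). Mrpl52 had 2496 and 1420 counts (1.64, 1.53 to 1.75). The 2 lowest ratios of all members were also in this class. Mrpl43 (chr19:45004829-45006442, minus strand) had 1653 counts with PM2.5 and 2025 in control, a ratio of 0.76 (0.71 to 0.81), and Mrpl44 had 929 and 1083 (0.80, 0.73 to 0.87). Mrpl43 overlaps Twnk, the gene of the mitochondrial DNA helicase, on the opposite strand; Twnk stood at 10.9 CPM with PM2.5 and 12.2 CPM in control, a ratio of 0.896 (0.806 to 0.997). Mrpl45, which holds the mitochondrial ribosome to the inner membrane, had 1183 counts with PM2.5 and 1163 in control (0.95, 0.87 to 1.03). Mrpl58, the peptidyl-tRNA hydrolase that frees stalled mitochondrial ribosomes and was recruited into the large subunit, had 2031 counts with PM2.5 and 1466 in control (1.29, 1.21 to 1.38).

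**Figure D2:**
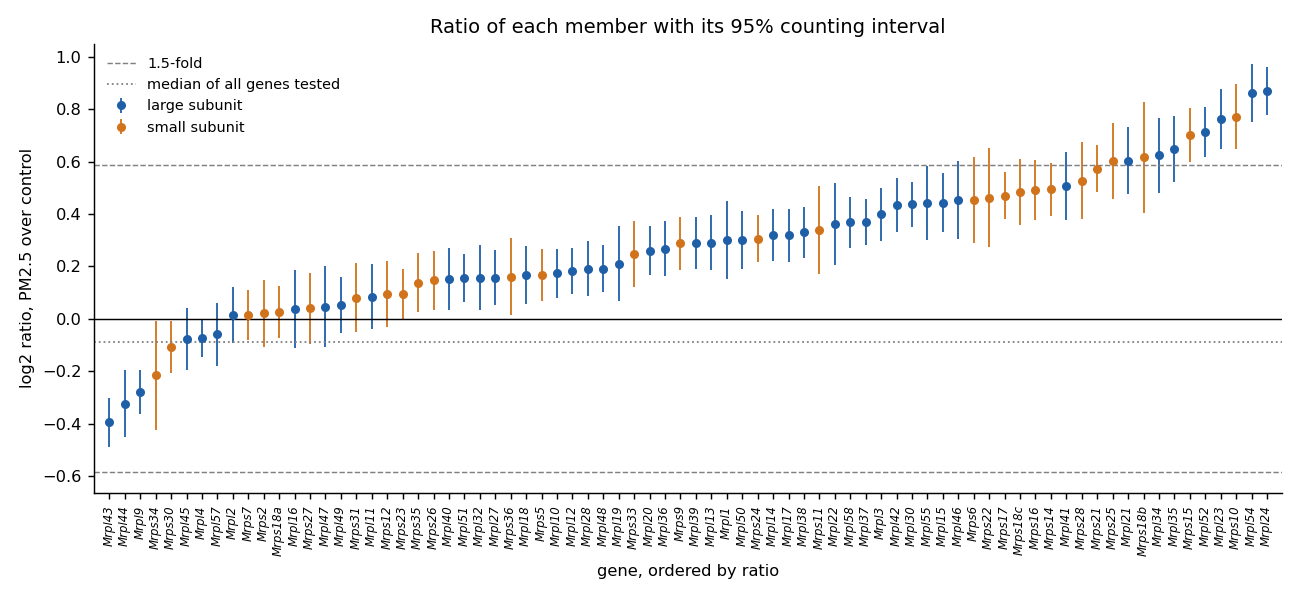
Log2 ratio of PM2.5 over control for each of the 76 tested members, ordered from lowest to highest, with points coloured by subunit and bars for the 95% counting interval. The broken lines mark 1.5-fold in both directions and the dotted line the median of all genes tested; 11 points reach the upper line and none the lower one, and genes of both subunits are spread along the order.

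Small subunit genes with a bacterial counterpart held the highest median of the classes, a log2 ratio of 0.46, and the ratio was above 1 in 18 of 18. Their quartiles, 0.20 to 0.52, overlapped those of the other classes. This rank was lost with the length trend removed: the median of this class was then 0.05, and the mitochondria-specific large subunit genes were highest at 0.13. Mrps10 had 1542 counts in the PM2.5 library and 842 in the control library, a ratio of 1.71 (1.57 to 1.86). Mrps15 had 2093 and 1199 counts (1.63, 1.51 to 1.75), and in bacteria its counterpart is among the first proteins to bind small subunit RNA. Mrps18b, 1 of 3 mammalian genes related to a single bacterial protein, had 490 and 298 counts (1.53, 1.32 to 1.78). Of its relatives, Mrps18c had 20.8 CPM with PM2.5 and 14.9 CPM in control (1.40, 1.28 to 1.53), with an interval that overlapped that of Mrps18b. Mrps18a had 1696 counts with PM2.5 and 1552 in control (1.02), and its interval, 0.95 to 1.09, overlapped neither. Mrps21 had 2643 counts with PM2.5 and 1656 in control, a ratio of 1.49, just outside the 1.5-fold size, whereas Mrpl21 and Mrps25 at 1.52 lay just inside it. Mrps28 had 970 and 628 counts (1.44, 1.30 to 1.59). The lowest of this class were Mrps7, with 1910 counts with PM2.5 and 1762 in control (1.01), and Mrps2, with 1040 and 955 (1.02), and their intervals included 1.

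The 9 tested small subunit genes specific to mitochondria had a lower median, 0.14, and 1 was called higher. That gene was Mrps25, with 1019 counts with PM2.5 and 626 in control (1.52, 1.37 to 1.68). Mrps34, variants of which cause a mitochondrial translation disorder in humans, had 368 and 398 counts, a ratio of 0.86 (0.75 to 0.996). With the length trend removed their median was 0.02, or -0.11 with the length of the principal transcript. From structures and later work, 3 Mrps genes belong elsewhere in the particle or outside it, and Mrps18a, counted by its symbol among the 18 above, is 1 of them. Mrps30, which like Mrps18a sits in the large subunit in structures of the mammalian mitoribosome, had 1664 counts with PM2.5 and 1672 in control (0.93, 0.87 to 0.99). Mrps36, later identified as a part of the 2-oxoglutarate dehydrogenase complex, had 848 and 707 counts (1.12, 1.01 to 1.24).

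The large and the small subunit genes had nearly the same median. The median log2 ratio was 0.29 for both, with quartiles 0.15 to 0.43 for the large and 0.09 to 0.49 for the small subunit, and the difference of the medians, large minus small, was 0.00048. Summed levels were 1252 CPM with PM2.5 and 1044 CPM in control for the large subunit (ratio 1.20), and 654 CPM and 535 CPM for the small subunit (1.22). The large subunit sum was thus 1.91 times the small subunit sum with PM2.5 and 1.95 times in control. With Mrps18a and Mrps30 placed in the large subunit and Mrps36 left out, the medians were 0.27 (large) and 0.32 (small). The sign of the difference changed with this and 3 other alternatives, and the values over all alternatives lay between -0.055 and 0.054. No test of the difference was made.

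Levels per transcript length were compared in TPM (transcripts scaled to a fixed sum per library), computed over the longest annotated transcript. Mrps21 had the highest value, 143 TPM with PM2.5 and 96.3 TPM in control. Over the APPRIS principal transcript, the annotated main isoform, Mrpl52 came first instead, with 147 TPM with PM2.5 and 89.9 TPM in control, against 133 and 89.8 TPM for Mrps21. Over the longest transcript and by the PM2.5 value, Mrpl54 (88.2 and 48.6 TPM), Mrpl14 (78.3 and 62.8 TPM), Mrpl52 (77.1 and 47.1 TPM) and Mrpl20 (70.0 and 58.6 TPM) led in the large subunit. On the same measure, Mrps21 was followed in the small subunit by Mrps24 (64.0 and 51.8 TPM), Mrps15 (53.3 and 32.8 TPM) and Mrps18c (41.7 and 29.8 TPM). Each of these 8 genes had the higher TPM in the PM2.5 library. The order of the 76 genes was largely the same in both libraries: across genes, Spearman's rho between the libraries was 0.972 for TPM and 0.894 for CPM, which describes these 2 libraries only, since genes are not independent replicates and TPM shares its lengths. The coefficient of variation of CPM across members was 38.6% with PM2.5 and 41.0% in control. In 71 members CPM was above 10 in both libraries.

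Over all protein-coding genes the ratio was lower at greater transcript length, and the members have short transcripts. The median length of the APPRIS principal transcript was 1324 nt for members and 3018.5 nt for protein-coding genes tested. Spearman's rho between log2 ratio and this length was -0.29 over members and -0.41 over protein-coding genes, as a description across genes. In the shortest 25 members (418 to 1031 nt) the median log2 ratio was 0.44, beside 0.40 for 807 protein-coding genes of those lengths. For the middle 25 (1056 to 1849 nt) it was 0.18, beside 0.16 for 2269 genes. In these groups 14 and 15 of 25 members lay above the median of genes of like length. The 26 longest members (1962 to 7300 nt) had a median of 0.20, beside -0.21 for 9321 genes of those lengths, and all 26 lay above that median. That median is 1 value for a wide range of lengths. With the trend on principal length removed, Mrpl45 (-0.13) and Mrps7 (-0.11) lay below the -0.09 of all genes tested. The rest of the 26 lay above it. With the length trend removed the median of the members was 0.05 (longest transcript) or 0.02 (principal transcript), beside -0.09 for all genes tested in both cases. The part of transcript length in the members' ratios was not tested beyond these values.

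**Figure D3:**
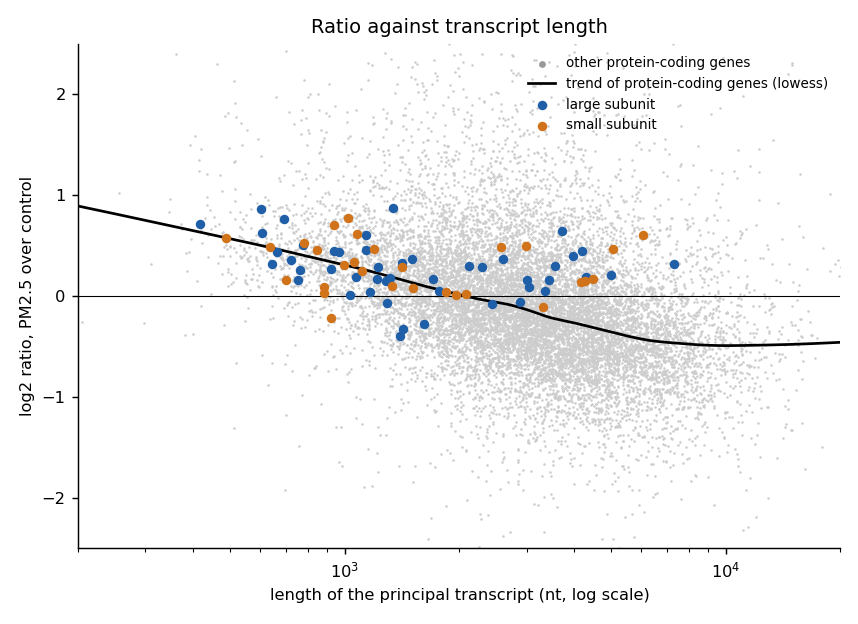
Log2 ratio of PM2.5 over control (vertical axis) against the length of the principal transcript in nucleotides (log scale), for large subunit genes (blue), small subunit genes (orange) and other protein-coding genes (grey), with the lowess trend of protein-coding genes as a line. Genes outside the axis ranges are not drawn. Short members lie around the trend. The 26 longest, from 1962 nt, lie above the single median of genes of those lengths, which is not drawn and differs from the trend line.

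Position in the genome was examined because genes of mitochondrial proteins often share a promoter region with a neighbour. The 76 members lay on 17 chromosomes, and chromosome 11 held more (11) than any other. For 18 members (23.7%) another protein-coding gene started on the opposite strand within 1000 bp upstream, against 9.45% of 13792 protein-coding genes tested. These 18 had a median log2 ratio of 0.16, and the 58 others 0.30. The partners had a median of 0.11, and the member was above its partner in 9 of 18 pairs. Single pairs differed widely. Mrps18b had 490 counts with PM2.5 and 298 in control, while its neighbour Ppp1r10, 45 bp away, had 2166 and 3850 (ratio 0.52, 0.50 to 0.55). Mrpl54 had 2015 and 1034 counts, and Apba3, 26 bp away, had 1524 and 1767 (0.80, 0.75 to 0.86). Mrps18c and its neighbour Helq, 29 bp away, were alike, with log2 ratios of 0.48 and 0.49. These 3 pairs were chosen after their values were seen.

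A large and a small subunit gene start head to head on chromosome 7. The RefSeq starts of Mrpl46 (minus strand) and Mrps11 (plus strand) are 42 bases apart, and the exon-free bases between them are few enough to show whole, on the plus strand at chr7:78783090-78783118, with no motif match and so no capitals. In GENCODE M21 the gene Mrpl46 extends past this stretch, and its exons overlap those of Mrps11 on the opposite strand.
Mrps11: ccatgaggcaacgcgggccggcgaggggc
Mrpl46 had 906 counts with PM2.5 and 617 in control (1.37, 1.23 to 1.52), and Mrps11 had 686 and 506 (1.26, 1.13 to 1.42). This pair was chosen after its values were seen. Its intervals overlapped, but without the strand setting the genes may share reads. Exons of 31 tested members overlap an exon of another gene, 6 on the same strand and 27 on the opposite one. The strand setting of the counting is not given, so the values of those 31 are uncertain, Mrpl24, Mrpl21, Mrpl43, Mrpl46, Mrps11, Mrps18b, Mrps25 and Mrps34 among them. Over the 45 members without such an overlap the median log2 ratio was 0.30. Mrpl23, Mrpl48 and Mrps36 have annotated pseudogenes of the same name, with which reads could be shared.

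Other components of mitochondrial translation gave a mixed picture. The 5 mitoribosome proteins with other symbols had a median log2 ratio of 0.43 and all had ratios above 1. Chchd1 was called higher (26.4 CPM with PM2.5, against 17.1 CPM in control; ratio 1.55), and Dap3, a small subunit protein also named for its link to cell death, had 47.1 CPM and 36.8 CPM (1.28). Of 24 assembly genes 5 were called higher and 0 lower (median 0.26). The highest was Mettl17, which helps small subunit assembly, with 18.8 CPM with PM2.5 and 7.78 CPM in control (2.42, 2.17 to 2.70). Next were Tfb1m, the methyltransferase of small subunit RNA (4.47 and 2.31 CPM; 1.93), and Mterf3 (32.3 and 20.5 CPM; 1.58).

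Translation factors had a median of -0.10, with 4 of 15 called higher and 0 lower. Guf1, a translation elongation factor, had 29.6 CPM with PM2.5 and 12.8 CPM in control (2.31, 2.12 to 2.52), Slirp, which stabilises mitochondrial mRNA, 14.1 and 7.88 CPM (1.78), and Mtfmt, which formylates the initiator tRNA, 12.9 and 7.49 CPM (1.73). Tufm, the main elongation factor, had 27.2 CPM with PM2.5 and 35.6 CPM in control (0.76, 0.71 to 0.81). Of 17 mitochondrial aminoacyl-tRNA synthetases 4 were called higher and 0 lower (median 0.22). Cars2 (1.77), Ears2 (1.64) and Tars2 (1.54) led. Lars2 alone held 94.7% of the synthetase counts with PM2.5 and 94.98% in control, so the sum of this list is not informative.

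In mitochondrial transcription and DNA maintenance 4 of 10 genes were called higher and 0 lower (median 0.36). Mterf2 (5.72 CPM with PM2.5 and 2.73 CPM in control; 2.1), Mterf1a (3.83 and 2.12 CPM; 1.8) and Polg2, the accessory subunit of the DNA polymerase (9.04 and 5.24 CPM; 1.72), led. Tfam, which packages mitochondrial DNA, was at 30.5 CPM in both (0.9995, 0.94 to 1.07). The 9 nuclear regulators had a median of -0.34, with 1 called lower and none higher. That gene was Yy1, with 54.5 CPM with PM2.5 and 94.4 CPM in control (0.58, 0.55 to 0.60). Nrf1 had 31.1 and 39.3 CPM (0.79, 0.74 to 0.84), Gabpa 43.6 and 63.9 CPM (0.68, 0.65 to 0.72), and the coactivator Ppargc1a 6.09 and 5.80 CPM (1.05, 0.90 to 1.22). The ratios of Nrf1, Gabpa and Yy1 were below 1. The part of these regulators in the members' ratios was not tested.

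The RNA partners of the proteins had ratios below 1. The small subunit RNA mt-Rnr1 had 95189 counts with PM2.5 and 111354 in control (0.80, 0.79 to 0.80), and the large subunit RNA mt-Rnr2 had 408118 and 468824 (0.81, 0.81 to 0.81). The ratio of summed ribosomal RNA to summed members was 0.67 times as high with PM2.5 as in control. Both RNAs were counted after selection on oligo-dT beads, and its part in their levels was not tested. The 13 mitochondrially encoded proteins, which these ribosomes make, had a median of 0.17, with mt-Nd3, a subunit of complex I, called higher (771 CPM with PM2.5, against 397 CPM in control; 1.94) and none lower.

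Cytosolic ribosomal proteins and nuclear respiratory chain subunits, set beside the members, also had higher calls and no lower ones. Of 75 cytosolic ribosomal protein genes 4 were called higher and 0 lower (median 0.35), and their summed ratio of 1.22 was near the members' 1.21. Rpl29 stood far from the rest, with 20165 counts with PM2.5 and 1267 in control (14.8, 14.01 to 15.7). Of 81 tested nuclear respiratory chain subunits 24 were called higher and 0 lower (median 0.41). The leading ones were Cox8b (363 counts with PM2.5 and 64 in control; 5.29), Ndufa12 (2230 and 700; 2.97) and Cox7a1 (397 and 131; 2.82), and Cox8b and Cox7a1 are also on the list of brown fat markers. Protein-coding genes within the interquartile range of the members' lengths (5894 genes) had a median of 0.04, with 16.1% called higher and 11.0% lower. The 38 members in that range had a median of 0.17, with 3 called higher and 0 lower.

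**Figure D4:**
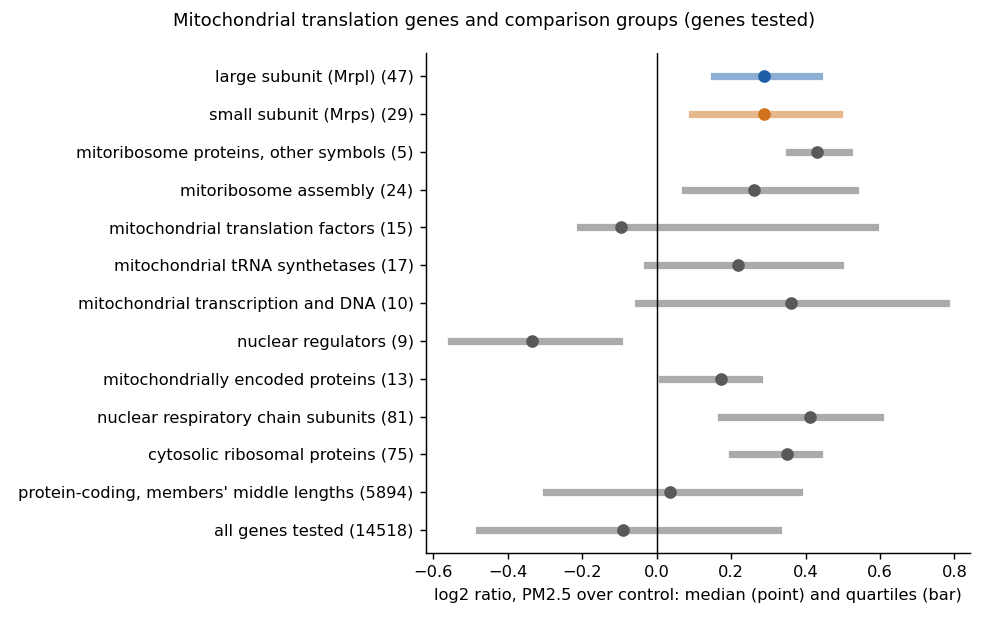
Median log2 ratio of PM2.5 over control (points) with quartiles (bars) for the large and small subunit genes, other lists of mitochondrial translation, cytosolic ribosomal proteins, nuclear respiratory chain subunits, protein-coding genes of the members' middle lengths and all genes tested, with the number of genes tested in brackets. Both subunits have a median of 0.29, between the nuclear regulators at -0.34 and the mitoribosome proteins with other symbols at 0.43.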

How the data were processed

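RNA sequencing of C57BL/6 mouse lung gave 1 PM2.5 library and 1 control library, grouped by the exposure in the labels. Per the labels' protocols, oligo-dT-selected mRNA went into stranded KAPA libraries read in pairs on a HiSeq2500. TopHat2 2.1.1, HTSeq 0.6.0 and mm10 are named per the submitters' processing notes. Neither the annotation release nor the strandedness of the counting is stated there. The deposited tables hold raw read counts per Ensembl identifier; 1 blank line carries no count. Symbols for 35449 of 37315 identifiers, coordinates and lengths came from GENCODE M21 on GRCm38. The library totals were adjusted by TMM in edgeR 4.0.16 (factors 1.08 for PM2.5 and 0.923 for control; R 4.3.3), and CPM, ratios on the CPM scale without pseudocount, exact Clopper-Pearson 95% intervals and TPM were computed in Python 3.11.15 (scipy 1.17.1, statsmodels 0.14.6). Reads are not independent molecules, so intervals and the floor of 3 counts cover counting error only. With 1 library per group there is no test and no p-value. The interval and the call rule were tested on simulated counts that held counting error only. Scaling, the length trend and the motif search were not part of that test.

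Genes were named by rule: every member called at 1.5-fold, for each subunit the 4 highest, 4 lowest and 4 most abundant per length, Mrps18a, Mrps30, Mrps36, Mrpl12, Mrpl58 and Mrps28, members under the filter, up to 3 leading called genes of other lists, and Tufm, Tfam, Ppargc1a, Nrf1 and Gabpa. Others, such as Dap3, Twnk, Lars2, Mrpl22 and the neighbouring genes, were chosen after their values were seen. The members and lists were chosen with earlier results of these data known. Alternatives were other scalings (DESeq2 1.42.0 size factors, totals, upper quartile, TMM without the 100 most abundant genes), filters, call sizes, thinning, summed levels, removal of the length trend (lowess, fraction 0.3), and other choices of members. The trend on principal transcript length and the comparisons within length ranges were added after seeing the data.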

Additional observations from a re-analysis of the deposited data

How the results depend on the processing

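No paired analysis was possible because each group is 1 library. Members called higher numbered 29 with library totals, 21 with upper quartile scaling, 31 with the smaller call size tried and 0 at 2-fold, and with these scalings and the smaller size the 11 were among them. Members called lower numbered 2 with the smaller size. Thinning to the shallower total kept 9 of the 11 (Mrpl21 and Mrps18b were not called). The members' median log2 ratio was 0.27 with DESeq2 size factors, 0.52 with totals, 0.43 with upper quartile, 0.27 from summed CPM, 0.30 without overlapping genes, 0.045 with the length trend removed and 0.023 with the added trend on principal transcript length. The median of all genes was 0.14 with totals, 0.05 with upper quartile and -0.09 with either length trend removed. The large minus small difference was 0.041 at 10 CPM, 0.054 with the length trend and 0.044 with the principal length trend removed and 0.051 without overlapping genes, and changed sign to -0.0084 thinned, -0.0087 without members that share a name with a pseudogene, -0.029 summed and -0.055 by structure. Over all genes, higher calls numbered 3456 with totals, 4471 without a filter, 866 at 10 CPM, 3577 with the smaller size and 1053 at 2-fold, and lower calls 1440 with totals, 4991 with the smaller size and 877 at 2-fold. The signs of 5 members changed with totals, 24 with the length trend removed and 29 with the principal length. The cause of the changes with scaling was not tested. Mrpl53 had too few counts for a fold, and its exons overlap Gm42688 on the same strand and Ccdc142os on the opposite one. The part of depth or of this overlap in its counts was not tested. The variation between animals is unknown.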
